A study of Mus musculus with 37 samples.

Results

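The 183 immunoglobulin heavy chain variable segments (Ighv) of the mouse were described in RNA bound to tagged ribosomes, taken from lymph nodes and spleen. They are all rows of the deposited table whose gene name starts with Ighv followed by a digit, 183 of 56351 genes, and all 183 gene identifiers were found on chromosome 12 in GENCODE M21, the annotation of the reference used here. All mice carried CD169 Cre KI/KI, a Cre recombinase knocked in homozygously, and were homozygous for Rpl22HA. In this RiboTag design the Cre activates a haemagglutinin-tagged copy of the ribosomal protein Rpl22, and ribosomes that carry the tag are pulled down with the messenger RNA on them. The groups were spleen and 11 lymph node sites (mediastinal, inguinal, iliac, celiac, liver, deep cervical, super cervical, ceco-colonic, ileal, jejunal and duodenal), with 3 libraries each, plus 1 isotype control library from jejunal node. The groups differed in site alone as far as the labels say, and the age of the mice is not given in the sources used here. The labels call the cells CD169 macrophages and do not say whether the 3 libraries of a site came from separate animals, so p-values measure only the spread between these libraries.

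A heavy chain begins with 1 variable segment, which a developing B cell joins to a diversity and a joining segment ahead of the constant genes. Each mature B cell or plasma cell therefore transcribes 1 chosen segment at a high level, joined to a constant gene such as Ighm or Igha, and the mixture of segments in a tissue reflects its mixture of clones. Macrophages do not rearrange the locus. Segments are grouped by sequence into families, and the number before the hyphen in a name is the family.

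Depth set what could be seen of them. Library totals ran from 221911 to 69139450 counts. At 7 sites (ileal, ceco-colonic, inguinal, super cervical, deep cervical, mediastinal and spleen) all 3 libraries held 1000000 or more. A further 14 libraries, all those of duodenal, liver, celiac and iliac nodes and 2 of jejunal node, held fewer. There 3 counts corresponded to between 3.27 and 13.5 CPM (counts per 1000000 counts of the library), and the features Gm19220, Rn18s-rs5 and Lars2, which hold ribosomal sequence, took 39.0% to 85.6% of all counts. Siglec1, the gene of CD169 and the defining marker of the labelled cells, was at 0 in every duodenal, jejunal, liver and celiac library and reached at most 3.33 CPM, in a mediastinal library. Marco, a scavenger receptor of sinus macrophages, was above 0 in all libraries, at 7280 to 7820 CPM in ileal and 2939 to 3312 CPM in mediastinal node.

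The segments that lead the results are 4 of 2 families, and their sequences show how much of each can be counted without ambiguity. They are 3′ stretches of equal length of the annotated transcripts in GENCODE M21 (GRCm38), 5′ to 3′. Capitals mark bases that lie in at least 1 stretch of 31 bases found in the transcripts of no other gene, and lower case marks bases whose every such stretch is shared.
Ighv1-11: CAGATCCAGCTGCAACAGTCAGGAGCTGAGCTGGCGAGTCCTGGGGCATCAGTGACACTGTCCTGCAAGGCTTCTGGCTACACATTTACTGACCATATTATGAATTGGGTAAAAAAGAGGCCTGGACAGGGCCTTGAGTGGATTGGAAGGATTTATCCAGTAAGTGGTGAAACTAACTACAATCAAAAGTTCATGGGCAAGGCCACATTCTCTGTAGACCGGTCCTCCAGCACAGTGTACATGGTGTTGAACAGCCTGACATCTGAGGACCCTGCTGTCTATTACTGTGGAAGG
Ighv1-26: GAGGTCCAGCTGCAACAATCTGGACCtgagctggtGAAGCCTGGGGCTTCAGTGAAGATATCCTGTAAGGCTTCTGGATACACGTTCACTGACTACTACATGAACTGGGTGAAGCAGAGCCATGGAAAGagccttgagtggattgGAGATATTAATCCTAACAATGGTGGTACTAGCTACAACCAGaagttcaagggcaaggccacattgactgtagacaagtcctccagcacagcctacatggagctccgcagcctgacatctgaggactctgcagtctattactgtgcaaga
Ighv5-9-1: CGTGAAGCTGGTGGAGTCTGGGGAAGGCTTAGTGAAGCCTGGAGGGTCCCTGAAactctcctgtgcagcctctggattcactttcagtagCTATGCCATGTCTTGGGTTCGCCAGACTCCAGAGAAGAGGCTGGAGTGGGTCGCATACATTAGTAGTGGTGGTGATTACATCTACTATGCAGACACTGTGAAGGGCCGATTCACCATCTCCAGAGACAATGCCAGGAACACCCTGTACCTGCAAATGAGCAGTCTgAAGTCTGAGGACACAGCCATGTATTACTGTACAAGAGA
Ighv5-17: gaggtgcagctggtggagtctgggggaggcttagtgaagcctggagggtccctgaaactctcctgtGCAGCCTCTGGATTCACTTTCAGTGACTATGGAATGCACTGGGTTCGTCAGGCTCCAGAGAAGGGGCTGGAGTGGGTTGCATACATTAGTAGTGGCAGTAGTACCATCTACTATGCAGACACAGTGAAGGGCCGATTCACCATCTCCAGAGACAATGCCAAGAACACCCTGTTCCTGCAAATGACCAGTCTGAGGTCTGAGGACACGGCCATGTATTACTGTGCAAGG
Of the 31-base stretches of Ighv1-11, 98.8% were found in no other gene. For Ighv1-26, a member of the same family, that share was 25.2%, and it had stretches in common with 47 other genes. The share was 66.8% for Ighv5-9-1 and 57.3% for Ighv5-17. Over all 183 members the median was 59.3%, from 1.91% to 100%, so the counts of single segments carry the uncertainty of dividing shared reads. The table may have been made with another annotation, and whether strand was used in counting is not given in the sources used here.

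Single heavy chain variable segments were mostly at or close to the detection limit. Only in mediastinal and ileal node was the sum over the segments far above it, with 140 to 261 counts in each mediastinal library. Estimated counts of the segments summed to 1017 over the 36 immunoprecipitated libraries. Of the 183 members 119 were above 0 in at least 1 of these libraries and 64 were at 0 in all of them. Among 6588 values (183 members in 36 libraries) 415 were above 0, or 6.30%, and 315 of those, or 75.9%, were below 3 counts. In 51 members some library reached 3 counts, and in 5 members 10 counts: Ighv1-11, Ighv1-26, Ighv5-9-1, Ighv5-6 and Ighv2-9-1.

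The 3 mediastinal libraries held 579 of the 1017 counts, or 56.9%, and 50.5% of all counts of the table. The 3 ileal libraries held 203, or 19.9%, with 21.4% of all counts. Most of the segment counts thus came from 2 sites, whose shares of the segments were close to their shares of all counts. The other 30 libraries held at most 18.1 Ighv counts each.

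Summed over the members, mediastinal node had 3.29, 3.38 and 3.77 CPM in its 3 libraries, a mean of 3.48 ± 0.254 (SD, n = 3). Ileal node had 1.94, 2.22 and 5.05 CPM (3.07 ± 1.72), so the third library lay above and the other 2 below the mediastinal ones. Ceco-colonic node had 1.88, 3.18 and 3.57 CPM and overlapped both. Inguinal node, at 2.13, 1.26 and 1.03 CPM, and deep cervical node, at 1.73, 1.23 and 0.981 CPM, were the lowest of the sites with deep libraries and did not overlap mediastinal node. On TMM-adjusted totals the first inguinal library, at 2.05 CPM, lay within the mediastinal range of 1.79 to 2.19 CPM. Super cervical node spread over 8.33, 3.64 and 1.92 CPM and spleen over 4.27, 1.88 and 10.6 CPM. At both of these sites, and at ceco-colonic, inguinal and deep cervical nodes, the deepest library had the lowest value. At ileal and mediastinal nodes it did not. Site and depth cannot be told apart in these levels.

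The libraries of fewer than 1000000 counts gave higher CPM from very few counts. They held 0 to 11.6 Ighv counts each, with a median of 10.8 CPM and a highest value of 25.5 CPM in a celiac library. The first duodenal library had no Ighv count, which allows up to 7.79 CPM by the limit of 3 counts (the exact interval drawn in the plot of Ighv CPM by site reaches 9.58). The other duodenal libraries had 22.02 and 8.26 CPM, from 4.89 and 2.89 counts. Exact Poisson intervals (95%) ran from 7.32 to 52.6 CPM for the former and from 2.83 to 3.81 CPM for the first mediastinal library, and they cover counting error only. Pooled over libraries, the segments held 11.03 CPM in the 14 shallow libraries, 3.52 in mediastinal, 2.90 in ileal and 1.96 in the other 16. With the ribosomal features left out of the totals, the shallow median rose from 10.8 to 48.3 CPM. That of the 22 libraries of 1000000 or more counts was then 2.80 CPM. Whether the share of ribosomal features or the depth accounts for the shallow libraries' level was not tested. A site's level can reflect fewer B lineage cells or less of their RNA per cell, which bulk libraries cannot tell apart.

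**Figure D1:**
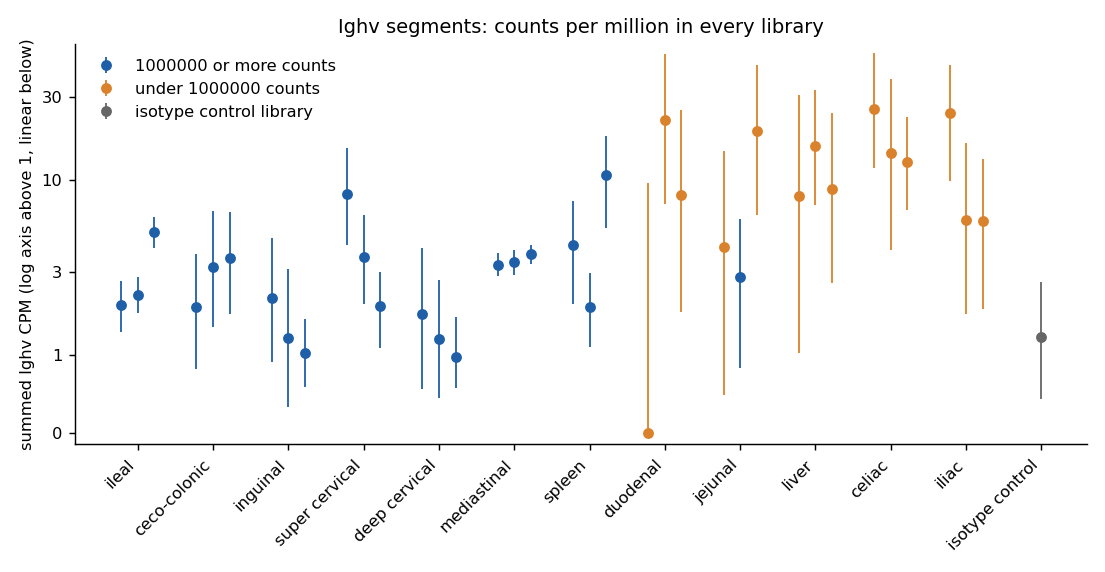
Summed CPM of the 183 Ighv segments in every library, grouped by site, with exact 95% Poisson intervals of the rounded counts (vertical lines); the y axis is logarithmic above 1 and linear below. Mediastinal libraries sit tightly between 3.29 and 3.77 CPM, and libraries of fewer than 1000000 counts (orange) lie mostly higher with wide intervals.

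Constant genes of the same chains held far more counts than the variable segments, summed over the 36 libraries. Ighm, Ighd, Igha, Ighg1, Ighg2b, Ighg2c, Ighg3 and Ighe summed to 777855 counts over the 36 libraries. Scaled to annotated transcript length, they held 380777 counts per kilobase against 2754 for the variable segments, 138-fold more. In a rearranged transcript 1 variable segment accompanies 1 constant gene. The ratio per kilobase was 141, 158 and 165 in the mediastinal libraries and 103, 259 and 344 in the ileal libraries. It was 0.642, 2.07 and 12.5 in spleen and between 0.0199 and 4.69 in the 13 shallow libraries that had any Ighv count.

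The constant genes varied by site far more than the segments did. Their summed level was 2626 to 2846 CPM in mediastinal node and 3147 to 4680 CPM in ileal node, but 130 to 361 CPM in inguinal node and 33.3 to 116 CPM in spleen. Over the 22 libraries of 1000000 or more counts the constant genes spanned a 140-fold range and the Ighv sum a 10.8-fold range. The second deep cervical library shows the gap within 1 library, with 1685 CPM of constant genes and 1.23 CPM of variable segments.

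**Figure D2:**
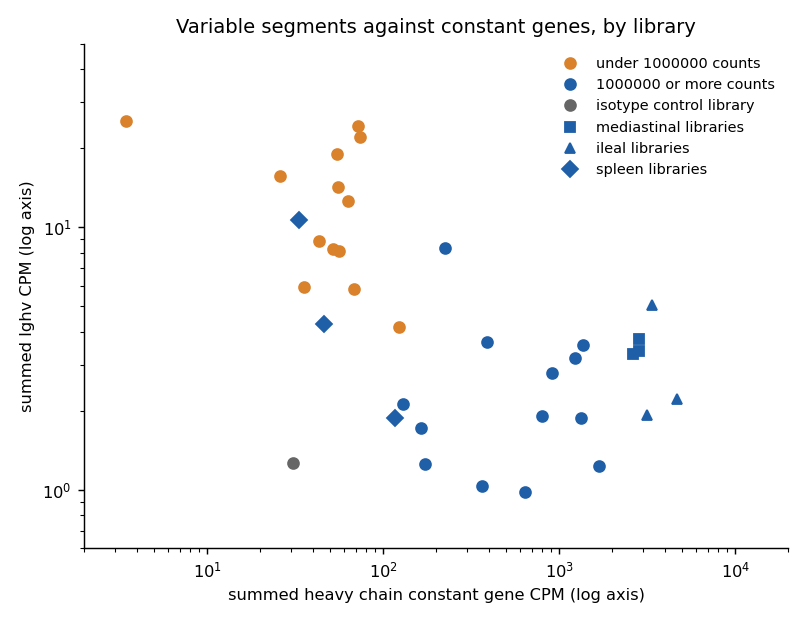
Summed Ighv CPM (y) against summed CPM of the 8 heavy chain constant genes (x), both on log axes, 1 point per library; the duodenal library with no Ighv count is left out. Mediastinal and ileal libraries lie far to the right with 1.94 to 5.05 Ighv CPM, while spleen libraries reach 10.6 Ighv CPM at 33.3 CPM of constant genes.

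Light chain variable segments gave more counts than the heavy chain ones from fewer genes. The 160 kappa segments (Igkv) summed to 3394 counts over the 36 libraries, with 118 of them above 0, and per kilobase they held 3.38 times the heavy chain level. Only 3 lambda segments (Iglv1, Iglv2 and Iglv3) are in the table, and they summed to 4975 counts, 4.71 times the heavy chain level per kilobase. Kappa segments were at 10.2, 11.9 and 20.6 CPM in the mediastinal libraries, all above the heavy chain segments there, and at 4.58, 6.68 and 6.66 CPM in the ileal libraries. Igkv8-16 led them with 187 counts, of which 164 were in 1 library. Lambda segments were at 0 in most shallow libraries, with a median of 0 counts over the 14, whereas the median Ighv sum there was 4.39 counts.

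The isotype control library held 6.33 Ighv counts of 5002926, or 1.27 CPM (0.440 to 2.61, exact 95% Poisson interval). That is below the jejunal values of 4.17, 2.80 and 19.1 CPM, which rest on 2.07, 5.46 and 4.89 counts, and its interval overlaps those of the first and second. It is above the 4 lowest of the libraries with any Ighv count, which lay between 0.981 and 1.26 CPM. With 1 control library there is no test. Its counts came from 2 segments, Ighv5-6 with 4.48 counts and Ighv1-50 with 1.85. Of the 11 B cell markers all were above 0 there, with a sum of 6209 CPM against 88.5 to 3910 CPM in the other libraries, and Bank1 at 3426 CPM and Pax5 at 2247 CPM made up most of it. Cd79a, which encodes a signalling chain of the B cell receptor, was at 5.26 CPM and heavy chain constant genes at 30.7 CPM in the same library. Marco was at 16.97 CPM there and at 98.3 to 4155 CPM in the jejunal libraries. Whether these counts came from B cells, and how they came into the control, was not tested.

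Summed markers of B cells and plasma cells, the cells in which the locus is rearranged, were above 0 in all libraries. Taken singly, Cd79a was at 0 in the first celiac library. The 11 B cell markers summed to 640 to 3910 CPM in the 22 libraries of 1000000 or more counts and to 88.5 to 1962 CPM in the 14 others. The 9 plasma cell markers summed to 9.70 to 265 CPM and to 5.39 to 31.6 CPM. The ranges overlapped for both lists, and the 3 deep cervical libraries, at 640 to 786 CPM of B cell markers, lay below the shallow jejunal and iliac ones. Cd79a was at 1012, 898 and 1219 CPM in mediastinal, 438, 482 and 506 CPM in ileal node and 4.68, 67.8 and 18.0 CPM in spleen. The B cell sum did not follow it, at 2387 to 3657 CPM in spleen and 2738 to 3471 CPM in mediastinal node. The part of these cells in the level of the segments was not tested.

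No segment dominated all mediastinal libraries. These 3 libraries were the ones with 100 or more Ighv counts (179, 140 and 261), the minimum used to describe evenness. They held 54, 40 and 73 segments above 0, together 91 of the 183, and 16 segments were above 0 in all 3.

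The leading segment was a different one each time. In the first library Ighv1-26 led with 11.2 counts, 6.24% of its Ighv counts. In the second Ighv5-9-1 led with 29.3 counts, 20.97%, followed by Ighv5-6 with 11.9 counts. In the third Ighv1-11 led with 38.5 counts, 14.8%, followed by Ighv1-26 with 21.7 counts. Ighv1-11 had 6.203 counts in the first library and 9.40 in the second, and Ighv5-9-1 had 3.51 and 2.19 counts in the first and the third. The leads of Ighv1-11 and Ighv5-9-1 thus each rested mainly on 1 library, whereas Ighv1-26 was first in the first library and second in the third.

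Evenness differed accordingly. The effective number of segments, the inverse of Simpson's index corrected for count, is the number of equally used segments that would give the same chance that 2 draws give the same segment. It was 43.1, 15.4 and 25.7 in the 3 mediastinal libraries, with a mean of 28.1 ± 13.97 (SD, n = 3). The number of segments expected in a draw of 100 counts was 43.7, 35.5 and 46.6. Evenness from Shannon's index, in which 1 means equal use, was 0.936, 0.865 and 0.875. The second library, led by Ighv5-9-1, was the least even by all these measures.

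The ileal libraries held 37.2, 70.6 and 94.9 Ighv counts and were described with a minimum of 30 counts that was added after their totals were seen. They held 19, 33 and 40 segments above 0, together 58, and 9 segments were above 0 in all 3. Ighv1-77 led in the first with 4.61 counts (12.4%), Ighv3-8 in the second with 7.95 counts (11.3%) and Ighv5-17 in the third with 8.57 counts (9.03%). Ighv6-3 came second in the second and the third libraries, with 7.05 and 8.39 counts, and had 1.01 in the first. Ighv9-3 was above 0 in all 3, with 3.94, 2.96 and 2.84 counts.

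The effective number of segments in ileal node was 23.6, 23.7 and 33.7, within the range of the mediastinal libraries. In a draw of 30 counts 17.1, 18.7 and 20.9 segments were expected for ileal node and 22.1, 17.9 and 20.9 for mediastinal node, so the 2 sites overlapped. No evenness is given for the other 30 libraries, which held too few counts.

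**Figure D3:**
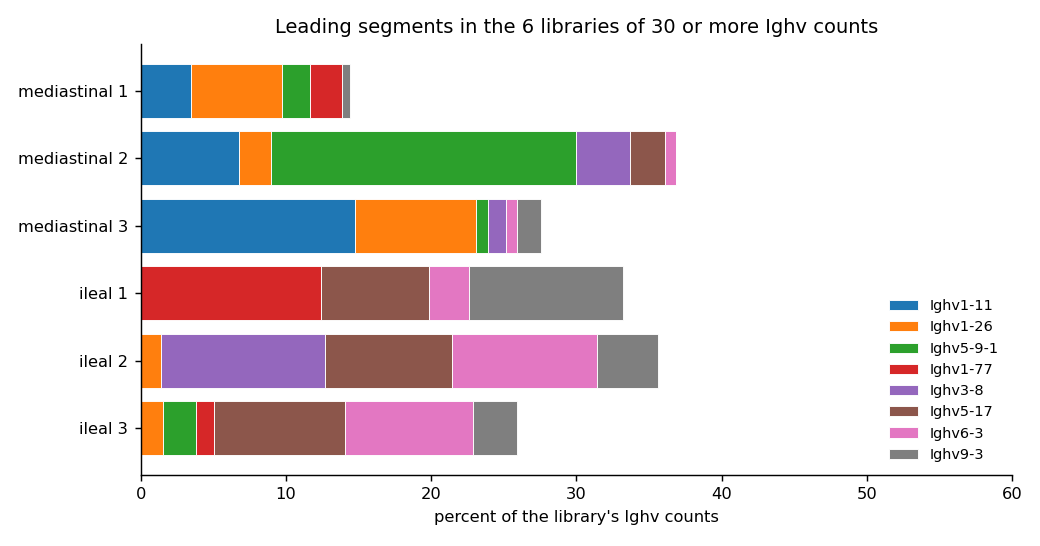
Percent of each library's Ighv counts (x) held by the 8 segments named for their share in the 3 mediastinal and 3 ileal libraries; segments not drawn make up the rest to 100. Ighv1-11 is drawn in all mediastinal and in no ileal library, and Ighv5-9-1 takes 20.97% of the second mediastinal library.

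How alike the libraries were depended on the measure. The Morisita-Horn index, which is 0 for no segment in common and 1 for equal shares, was 0.347 to 0.574 between mediastinal libraries and 0.408 to 0.546 between ileal libraries. Between a mediastinal and an ileal library of the same replicate number it was 0.201 to 0.350, and 0.140 to 0.357 for the other 6 pairs. The 2 highest pairs across sites, at 0.350 and 0.357, exceeded the lowest pair within a site, and the other 7 did not. As the share in common, pairs within a site had 0.292 to 0.499 and pairs across sites 0.185 to 0.364. The number of segments above 0 in both libraries was 13 to 16 within ileal node, 17 to 44 within mediastinal node and 9 to 30 across sites. Pairs within and across sites thus overlapped by all 3 measures, and the difference was not tested. The libraries share no source that the labels name, and depth differs between them.

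Ighv1-11, the segment with the most mediastinal counts (54.1), was at 0 in all 3 ileal libraries and in all 14 shallow libraries. Outside mediastinal node it appeared in 2 deep cervical libraries, at 0.950 and 3.01 counts, and in 1 spleen library at 0.894. At its pooled mediastinal level of 0.329 CPM, far below the 3-count limit of most other libraries, its absence elsewhere was largely beyond the depth. The 3-count limit of the ileal libraries was 0.0942 to 0.159 CPM. The pooled level rests mainly on the third mediastinal library (38.5 counts, 0.557 CPM), so the ileal zeros need not lie below every mediastinal library. Ighv1-26 had 35.97 mediastinal counts, 2.42 ileal counts and 0 in all shallow libraries. Its 1.81 counts in the second ceco-colonic library are 0.761 CPM, above the 0.0760 to 0.314 CPM of the mediastinal libraries.

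Ighv5-17 had the reverse pattern and was the segment with the most counts in all, 69.5, in 22 of the 36 libraries. It was at 0 in the first and the third mediastinal libraries, the 2 deepest of the table, and had 3.35 counts in the second. Its highest value was 8.57 counts in the third ileal library. Summed over the 3 libraries of a site it led at duodenal, ileal, liver, celiac, deep cervical and iliac nodes and in spleen, 7 of 12 sites. It held 39.5% of all Ighv counts in the shallow libraries, 8.66% in ileal and 0.578% in mediastinal node.

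Its counts were alike in shallow and deep libraries. In the 14 shallow libraries it had 0 to 4.73 counts, with a median of 1.87, and in the 18 libraries of the 6 deep node sites 0 to 8.57, with a median of 1.36. On the CPM scale this is a median of 4.15 in shallow libraries against 0.113 in the deep nodes. The isotype control had no count of it.

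**Figure D4:**
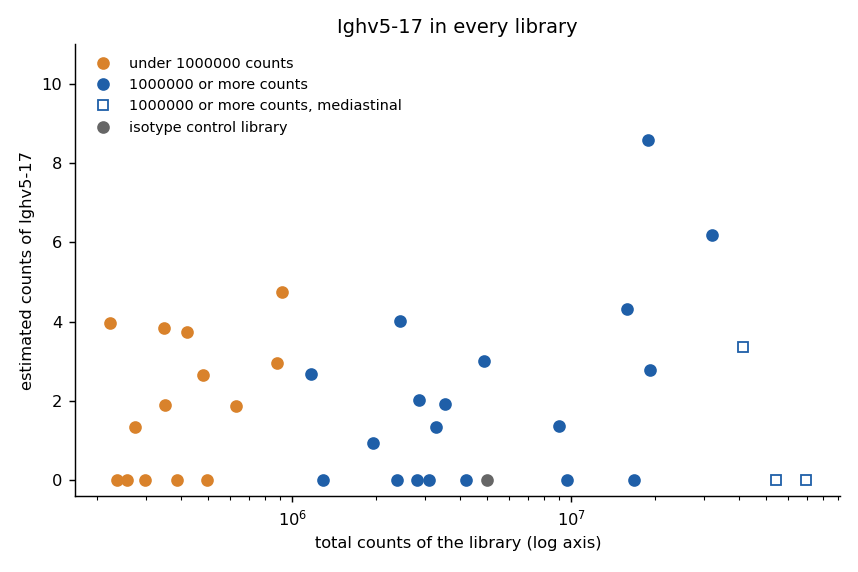
Estimated counts of Ighv5-17 (y, linear) against the total counts of each library (x, log axis); mediastinal libraries are open squares. Shallow libraries (orange) hold 0 to 4.73 counts and the 18 libraries of the deep nodes 0 to 8.57, and 2 of the 3 mediastinal libraries hold none.

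By family, family 1, the largest, has 92 of the 183 members (50.3%) and held 52.7% of the mediastinal, 47.8% of the ileal and 20.1% of the shallow libraries' Ighv counts. Family 5, with 21 members, held 14.6%, 12.4% and 59.0%. Ighv5-17 alone gave 26.99 of the 40.3 counts of family 5 in the shallow libraries, and between mediastinal and ileal node the family did not follow this segment. In the second mediastinal library family 5 held 34.2% against 7.32% and 9.10% in the other 2, and most of it was Ighv5-9-1 and Ighv5-6. Family 6 took 10.6% of ileal counts and 1.96% of mediastinal counts. Its ileal shares were 5.33%, 9.99% and 13.1% against mediastinal shares of 2.84%, 1.496% and 1.60%, without overlap. Ighv6-3 alone gave 16.4 of the 21.5 ileal counts of family 6. Families 9 and 13 were likewise higher in ileal node and families 2 and 12 in mediastinal node, without overlap and from few counts. Family 13 had 5.26 ileal and 1.22 mediastinal counts, and family 12 had 7.17 mediastinal counts and 0 ileal. Families 1, 3, 4, 5, 7, 8, 10, 11 and 14 overlapped, so those without overlap were picked out of all families compared. The differences between ileal and mediastinal node were not tested. Families 15 and 16, with 2 members and 1 member, were at 0 in all 36 libraries. The shallow libraries' shares rest on 68.3 counts in all.

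**Figure D5:**
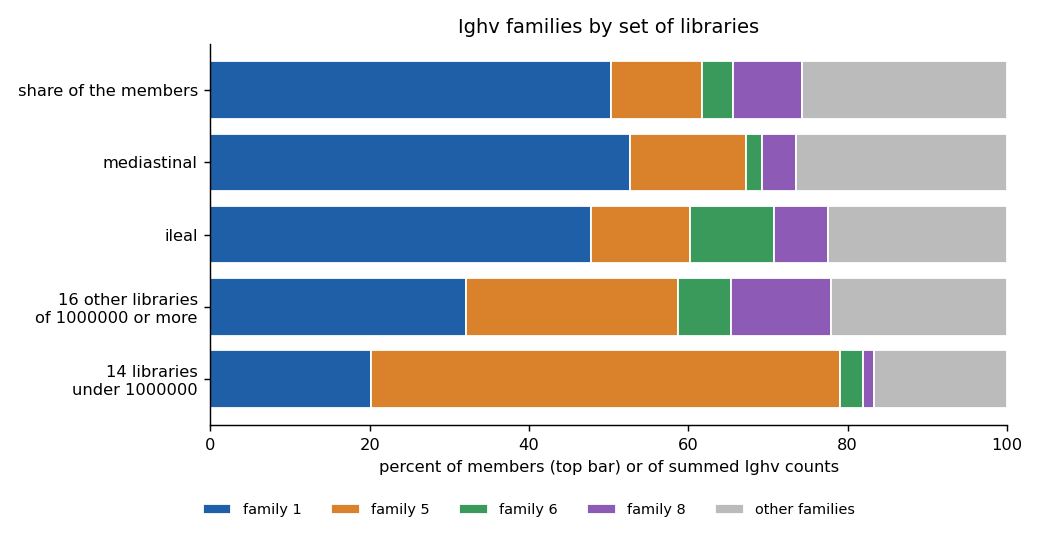
Share of each Ighv family among the 183 members (top bar) and among summed Ighv counts in 4 sets of libraries. Family 1 holds 52.7% in mediastinal node and 20.1% in the 14 libraries under 1000000 counts, where family 5 holds 59.0%.

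Segments annotated as genes carried nearly all counts. GENCODE M21 classes 113 members as variable genes and 70 as pseudogenes. Counts above 0 were found for 98 of the 113 genes and 21 of the 70 pseudogenes, and pseudogenes held 45.005 counts, 4.42% of the total, with 38.3% of the members. They held 17.1 of 579 counts in mediastinal and 4.92 of 203 in ileal node, and larger parts of the few counts of inguinal node (6.74 of 28.1), iliac node (2.81 of 17.3), jejunal node (1.93 of 12.4) and ceco-colonic node (3.93 of 25.4). The median share of unique 31-base stretches was 77.2% in the 64 members at 0 and 56.8% in the 119 with counts. Among members classed as genes alone the order was the other way, 49.2% and 55.5%.

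No member could be tested in the model of the 21 libraries of the 7 deep sites, because none passed the filter on low counts, so no member was called in any of its comparisons. Of the 16878 genes that passed, edgeR's quasi-likelihood test called 77.7% different in some way among these sites (Benjamini-Hochberg adjusted p under 0.05). It called 61.5% between spleen and the 6 deep nodes, 3.34% between ileal node and the 4 deep non-digestive nodes (inguinal, super cervical, deep cervical and mediastinal), and 0.474% between ileal and ceco-colonic node. The number of members with an unadjusted p under 0.05 was 0 in each.

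In the model of all 36 libraries 2 members passed the filter, Ighv5-17 and Ighv5-9-1, and neither was called in small-intestinal (duodenal, jejunal and ileal) against non-digestive nodes, where 27% of 16294 genes were. The log2 fold change of Ighv5-17 was 1.95 ± 1.02 (error derived from the F statistic) toward the small-intestinal nodes. Its adjusted p was 0.142 from edgeR's quasi-likelihood test. The median of all genes in that comparison was -0.91, and the duodenal and jejunal libraries were mostly shallow. Ighv5-17 passed the filter through shallow libraries, where it reached 17.9 CPM, against at most 0.710 CPM in the 18 deep node libraries. Its fold change is therefore no clean test of site. For Ighv5-9-1 the error derived in this way was 3496 at a log2 fold change of 1.63 and is of no use.

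Without the filter 111 members entered the model of the deep sites and 6 of them differed among the sites by edgeR's quasi-likelihood test, beside 41.7% of all 40612 genes: Ighv5-17, Ighv6-4, Ighv5-9-1, Ighv1-11, Ighv5-6 and Ighv2-8. Spleen against the deep nodes called 4 members, all higher in spleen, beside 30.4% of all genes. They were Ighv5-9-1 (log2 fold change 5.71 ± 1.45, adjusted p = 0.000532), Ighv5-17 (4.23 ± 1.15, adjusted p = 0.00133), Ighv8-12 and Ighv8-9. In both sets the share of members was well below that of all genes.

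These calls rest on a few counts each. Ighv5-17 had 4.02, 0 and 2.67 counts in the spleen libraries, which is 1.65, 0 and 2.29 CPM, and 0 to 0.710 CPM in the 18 deep node libraries, so spleen and nodes overlapped. Ighv5-9-1 was above 0 in 1 spleen library, with 4.86 counts. The same fit called 0 of 111 members between ileal and non-digestive nodes, where 9 had an unadjusted p under 0.05 and 2.27% of all genes were called, and 0 of 111 between ileal and ceco-colonic node, where 3 had one and 1.25% were called. In the 36 libraries without the filter it called 0 of 116 members, with 1 unadjusted p under 0.05, beside 9.08% of all genes. DESeq2 gave an adjusted p to only 3, 0 and 1 members in these 3 comparisons, in that order, and called none. In ileal against ceco-colonic node 0 was thus the only possible count. Of the members tested by DESeq2, Ighv5-17 in the last comparison had an unadjusted p under 0.05.

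Partner genes of the segments could be tested and differed strongly between sites. All 7 heavy chain constant genes that passed the filter were lower in spleen than in the deep nodes, with a median log2 fold change of -2.98 against -0.35 over all genes. Ighm, the constant gene of IgM, was at 27.8, 83.8 and 18.8 CPM in spleen and at 78.1 to 1674 CPM in the 18 deep node libraries, which overlap spleen, and its log2 fold change was -2.04 ± 0.48 (adjusted p = 0.000832, edgeR's quasi-likelihood test). Ighg2b, of an IgG class, fell by 3.75 ± 0.53 on the log2 scale (adjusted p = 2.37e-06). Of 5 light chain and joining genes 4 were lower, among them Igkc, the kappa constant gene (-2.40 ± 0.48, adjusted p = 0.000155).

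Of 8 plasma cell genes 4 were lower in spleen, including Xbp1, a regulator of secretory cells (-2.14 ± 0.45, adjusted p = 0.000249), and none was higher. The share called is below the 61.5% of all genes, of which 5799 were lower and 4582 higher. B cell genes were split, with 6 of 11 higher and 4 lower. Ms4a1, which encodes CD20, rose by 2.17 ± 0.26 and Bank1, a B cell adaptor, by 2.42 ± 0.32, while Cd79a fell by 2.49 ± 0.50, all on the log2 scale (adjusted p of 2.31e-07, 9.23e-07 and 0.000152, edgeR's quasi-likelihood test). Without the second spleen library the log2 fold change of Cd79a was -4.01.

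In ileal node 4 of 7 heavy chain constant genes were higher than in the non-digestive deep nodes and none was lower, with a median of 1.86 against -0.02 over all genes. They were Ighg1, Igha, Ighg3 and Ighg2b. Igha, the constant gene of IgA, was at 1864, 2174 and 2097 CPM in ileal node and at 4.21 to 7.90 CPM in inguinal, 33.8 to 92.2 CPM in super cervical and 159 to 662 CPM in mediastinal node. Deep cervical node had 10.1, 1292 and 20.6 CPM, and all 3 ileal libraries lay above these 12. Igha had a log2 fold change of 4.52 ± 0.75 over the 4 nodes (adjusted p = 0.00171, edgeR's quasi-likelihood test). Ighg1 differed by 5.13 ± 0.36 (adjusted p = 4.68e-10) and Ighg3 by 2.92 ± 0.35 (adjusted p = 4.61e-06). Jchain, the joining chain of polymeric antibodies, differed by 2.83 ± 0.34 (adjusted p = 5.72e-06), and Iglc1, a lambda constant gene, by 1.79 ± 0.36 (adjusted p = 0.00333). These were the 2 called among 5 light chain and joining genes, and Iglc1 lost its call without the second ileal library (adjusted p = 0.0693). None of the 8 plasma cell or 11 B cell genes was called.

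Against ceco-colonic node 2 of 7 constant genes were higher in ileal node and none was lower. Igha (log2 fold change 0.53, adjusted p = 0.866) and Jchain (1.12, adjusted p = 0.283) were not called there by edgeR's quasi-likelihood test. Ighg1 was at 429, 979 and 439 CPM in ileal and 46.9, 26.7 and 22.8 CPM in ceco-colonic node, without overlap, and its log2 fold change was 3.73 ± 0.58 (adjusted p = 0.00233, edgeR's quasi-likelihood test). Ighg3 differed by 2.56 ± 0.53 (adjusted p = 0.0278), and this call was lost when the second or the third ceco-colonic library (adjusted p = 0.176 and 0.215) or the second or the third ileal library (0.130 and 0.0660) was left out. The summed Ighv level of the 2 nodes, 1.94 to 5.05 CPM and 1.88 to 3.57 CPM, overlapped. Of the 160 kappa segments none passed the filter in the deep sites, and of the lambda segments Iglv1 and Iglv3 passed and were called among the sites but in none of the 3 pairwise comparisons.

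Over all 36 libraries, small-intestinal against non-digestive nodes, the constant genes moved both ways. Igha (log2 fold change 2.03 ± 0.66, adjusted p = 0.0246) and Ighg1 (1.77 ± 0.60, adjusted p = 0.0251) were higher in the small-intestinal nodes and Ighm (-1.60 ± 0.42, adjusted p = 0.00632) and Ighd (-1.85 ± 0.52, adjusted p = 0.00932) lower, by edgeR's quasi-likelihood test. Ighm was at 7.70 to 22.5 CPM in the duodenal and 11.8 to 43.5 CPM in the jejunal libraries against 340 to 825 CPM in the ileal libraries, so the ileal libraries did not follow the other small-intestinal ones. Igha lost its call without the second jejunal library (log2 fold change 1.16, adjusted p = 0.164) or the second or the third duodenal library (0.0639 and 0.0729). Ighg1 lost it without the second jejunal library (0.0583) or the first or the third duodenal library (0.261 and 0.0665). Without the third duodenal library the log2 fold change of Ighd was -4.19. Of the light chain and joining genes 2 of 5 were lower, of the plasma cell genes 3 of 8 and of the B cell genes 3 of 11, and none of these was higher. In this comparison 27% of all genes were called, 3536 lower and 861 higher.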

How the data were processed

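The deposited table holds estimated counts per gene for 37 libraries, not whole numbers, made by the authors with kallisto per the submitters' processing notes, which also name edgeR, limma and the builds GRCm39 and mm10 without versions or roles. The build behind the counts is therefore uncertain and no coordinates are given. Library totals were 221911 to 69139450 counts. CPM in the text use plain library totals. Counts were rounded and tested with edgeR 4.0.16 in R 4.3.3 (TMM, filterByExpr with a minimum count of 10 and a minimum total of 15, robust quasi-likelihood, 1 mean per site). p-values were adjusted over all genes with Benjamini-Hochberg, threshold 0.05, and DESeq2 1.42.0 served as an alternative. Errors given after ± for edgeR's log2 fold changes were not fitted. They are the absolute log2 fold change divided by the square root of the F statistic. Summed Ighv shares, evenness and likeness are sums or scores over the members and carry no test. Sequences and 31-base stretches were taken from GENCODE M21 transcripts, and lengths are those of each gene's longest transcript there.

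Named segments are those with the largest share or 10% or more in a library of 100 or more Ighv counts, the 3 with the largest mean share at such a site, and members called in a test. The same rule was applied to ileal node at 30 counts, and Ighv5-6 and Ighv2-9-1 were named after their values were seen. A further rule, to name members with a pattern like the leading segment's, could not be applied because no member passed the filter in the deep sites. The members and lists were chosen with earlier results of these data known. The edgeR script was tested on simulated data. Genes with an identifier but no symbol (211) held 0.0159% to 0.115% of a library's counts and stayed in the fits.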

Additional observations from a re-analysis of the deposited data

How the results depend on the processing

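No member of the heavy chain variable segments was called in the fits as reported, nor with DESeq2's size factors in edgeR or without the 3 ribosomal features. With the replicate number as a block 0 members were called in each of the 5 comparisons. In the 4 comparisons of the deep sites no member was tested under these 3 settings, so 0 was the only possible count there and shows no stability. Libraries of the same number at different sites did not all deviate together (median correlation 0.024 over 63 pairs, 18 of them over 0.1, against -0.020 over 126 pairs of different numbers, 20 of them over 0.1). The sets of pairs overlap and cannot decide if the numbers pair the samples. The block changed no call of a named gene. Among the deep sites 6 of 111 members were called without a filter, 1 of 3 with every library of 1000000 or more counts and 1 of 5 with DESeq2. Beside them 16952 of 40612, 14583 of 19702 and 15868 of 24338 genes were called. For spleen against the deep nodes these numbers were 4 of 111, 2 of 3 and 1 of 5, beside 12362 of 40612, 11249 of 19702 and 12194 of 24805 genes. The 2 of 3 were Ighv5-17 and Ighv5-9-1. Each is highest, among the libraries of that depth, in a spleen library in CPM. Each passed the filter with such libraries counted, so their calls carry the same limit as below. DESeq2 called Ighv5-17 in both comparisons, and this segment had at most 4.02 counts in a spleen library.

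Leaving out 1 library gave 0 to 1 members in both of these comparisons and 0 in the others. The 1 was Ighv5-17, in 9 of 21 fits: those without any one of the 3 ceco-colonic libraries or without the first or second inguinal, super cervical or deep cervical library. There, with 2 libraries in the smallest group, it passed the filter as the 1 member tested. Of 19160 to 19449 genes tested in these 9 fits, 13503 to 14666 were called among the sites and 10858 to 11453 for spleen. Ighv5-17 is at 1.65 and 2.29 CPM in 2 spleen libraries and at most 0.710 CPM in the 18 deep node libraries. It thus entered through the group where it is high, and these calls are no test of a difference. In the other leave-outs of the deep sites no member was tested. In small-intestinal against non-digestive nodes the log2 fold change of Ighv5-17 stayed above 0 and uncalled under 29 alternatives (0.057 to 2.43, adjusted p 0.0567 to 0.9999), and the lowest value came without the second jejunal library. In the filtered edgeR fits of this comparison it passed through shallow libraries, so they are no clean test of site.

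Without the ribosomal features in the denominator the mean Ighv level rose to 46.2 CPM in duodenal, 19.8 in jejunal, 49.0 in liver, 108 in celiac and 27.1 in iliac node. On TMM-adjusted totals it was 26.1 CPM in celiac, 0.926 in deep cervical and 2.003 in mediastinal node, below ileal node at 2.17. The mean was 4.13 CPM without the second duodenal library, 3.49 without the third jejunal, 5.88 without the first iliac, 3.08 without the third spleen and 2.78 without the first super cervical library, and at the other sites it moved by less than 1.5 times. The mean effective number of segments in mediastinal node was 24.1 without the correction for count, 20.6 to 34.4 without 1 library and 1.90 when segments under 10 counts were left out, which keeps 1, 2 and 4 segments. In ileal node it was 19.3 without the correction. A minimum of 1000 Ighv counts left no library. As the share in common, the median likeness within ileal node was 0.391 and within mediastinal node 0.390. Of the named partner genes, Ighg3 in ileal against ceco-colonic node lost its call in 4 of 12 alternatives, Iglc1 in ileal against non-digestive nodes in 1 of 21, and Igha and Ighg1 in small-intestinal against non-digestive nodes in 3 of 29 each, all by leaving out 1 library. The other named partner genes kept their calls under the alternatives run. Depth limits all of this: 3 counts are 0.0434 CPM in the deepest library and 13.5 CPM in the shallowest.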
